A study of Rattus norvegicus with 18 samples.

Results

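The genes described here encode the machinery that moves newly made proteins between the endoplasmic reticulum (ER) and the Golgi. They are the subunits of the COPII and COPI vesicle coats, the small GTPases that recruit COPI, the cargo receptors, and the SNAREs and tethers that dock and fuse the vesicles. Of 48 genes named for this machinery, 45 had an array probe set that carries a single gene, out of 14217 genes so measured. The brightest such probe set by mean signal over the 18 arrays represented each gene. That mean includes the doxycycline arrays, so a response could enter the choice. Sec23a, Sec23ip and Sec24a had no such probe set. Sec16b and Copz2 were below the signal filter, which left 43 genes that were tested.

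RNA came from clone #4S2 cells, a line derived from INS-1, a rat insulinoma line used as a pancreatic beta-cell model. Doxycycline switches on mouse Ins2 (C96Y)-EGFP in these cells, a proinsulin that cannot fold, fused to a fluorescent protein. The drug was given at 2 µg/ml, and RNA was taken after 24 h, after 48 h and after 5 days, while control cells of each time carried the same construct and were left untreated. Each of the 6 groups held 3 arrays, numbered 1 to 3 as independent experiments, and a doxycycline array was compared with the control array of the same number and time. All cells were of 1 clone and no array tested doxycycline in cells without the construct. On these arrays the mutant protein and the drug therefore cannot be told apart as sources of a difference. Off the arrays, the paper reports without showing data that the drug left Grp78 and Chop unchanged in parental INS-1 cells. In bulk RNA, a change in the share of responding cells and a change in RNA per cell cannot be told apart either.

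Secretory proteins leave the ER in COPII-coated vesicles. Sar1, switched on by Preb, recruits the inner coat of Sec23 and Sec24 and then the outer cage of Sec13 and Sec31, at exit sites built on Sec16. COPI, a coat of coatomer subunits recruited by ARF GTPases, returns escaped ER residents and receptors to the ER. When unfolded proteins build up in the ER, the unfolded protein response switches on transcription factors such as XBP1 and ATF6, which raise many genes of the secretory pathway and bind short promoter elements.

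One of these elements, the unfolded protein response element (UPRE), was searched for in the promoters as TGACGTGG or TGACGTGA on both strands, since these cells are made to produce a misfolded protein. RefSeq promoters of the rat assembly GRCr8, 250 bases before to 50 bases after each annotated start site, were given for 43 of the 48 genes. The UPRE was present in 10 of these 43 promoters (23.3%), against 283 of 27457 rat promoters of the same length (1.03%) and 151 of 11701 promoters of genes that the arrays measure singly (1.29%). The stretches that hold it are shown here, each read 5′ to 3′ along its gene with up to 16 flanking bases on either side. Capitals mark the match, which reads CCACGTCA when the element lies on the other strand.
Copa, chr13:87078882-87078917, plus strand: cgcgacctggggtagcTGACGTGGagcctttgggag
Copb1, chr1:177872823-177872862, minus strand: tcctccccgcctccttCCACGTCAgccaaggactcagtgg
Copb2, chr8:108040661-108040700, plus strand: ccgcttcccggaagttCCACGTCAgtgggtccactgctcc
Arf1, chr10:44514001-44514040, minus strand: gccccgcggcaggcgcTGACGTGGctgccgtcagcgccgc
Arf4, chr16:1903411-1903450, plus strand: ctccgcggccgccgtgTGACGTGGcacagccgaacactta
Gbf1, chr1:254960001-254960040, plus strand: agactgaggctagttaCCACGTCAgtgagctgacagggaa
Sec16a, chr3:29662463-29662502, minus strand: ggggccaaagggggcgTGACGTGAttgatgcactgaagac
Sec23a, chr6:82440972-82441011, minus strand: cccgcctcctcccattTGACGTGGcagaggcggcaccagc
Stx5, chr1:215066497-215066566, plus strand: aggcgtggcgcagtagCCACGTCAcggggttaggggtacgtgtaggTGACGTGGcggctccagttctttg
Scfd1, chr6:74531240-74531279, plus strand: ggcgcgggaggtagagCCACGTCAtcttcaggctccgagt

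These 10 genes were the coatomer genes Copa, Copb1 and Copb2, the ARF genes Arf1 and Arf4, the ARF exchange factor Gbf1, the COPII genes Sec16a and Sec23a, the SNARE gene Stx5, and Scfd1, whose product works with Stx5. By class, the element was in 3 of 9 coatomer promoters, 3 of 5 ARF regulator promoters, 2 of 11 COPII promoters, 2 of 10 SNARE promoters, 0 of 6 cargo receptor promoters and 0 of 2 tether promoters. The SNARE class, as counted here and below, includes Scfd1 as a partner of Stx5. Of the 11 matches, 10 read TGACGTGG, and 9 began within 50 bases of the start site. Stx5 carried 2 matches, on opposite strands.

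**Figure D1:**
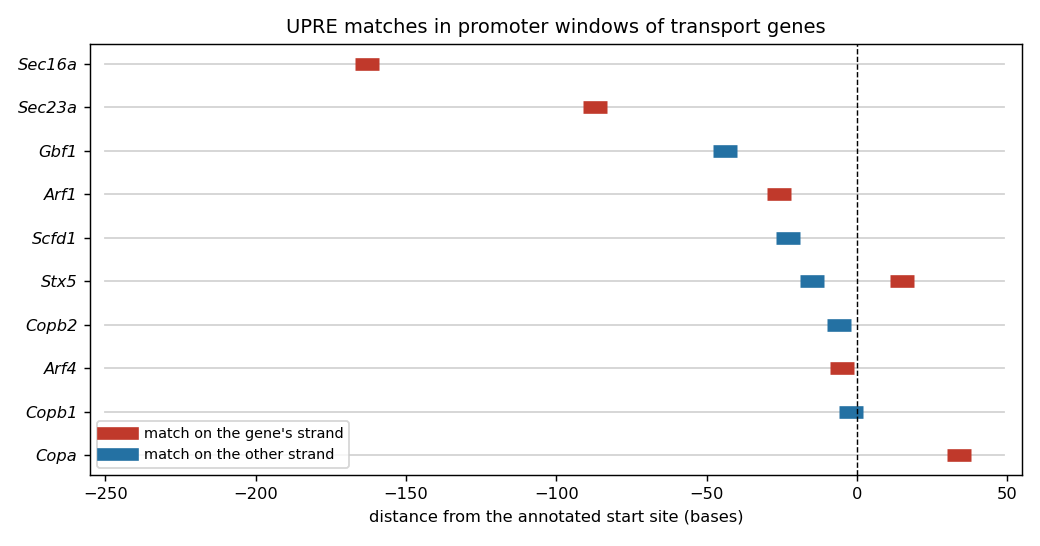
Position of each UPRE match (bars) in the promoter window of the 10 genes that hold one, in bases from the annotated start site at 0 (dashed line), for the gene's own strand (red) and the other strand (blue). Matches in 8 of the 10 genes begin within 50 bases of the start site, and those of Sec16a and Sec23a lie farther upstream.

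The shorter core CCACG, which is part of the UPRE when read on the opposite strand of TGACGTGG, was in 31 of the 43 promoters (72.1%), against 32.5% of all promoters and 44.3% of the promoters of genes measured singly. The ER stress response element (ERSE, CCAAT and CCACG 9 bases apart) and its second form (ERSE-II, ATTGG and CCACG 1 base apart) were in none of the 43, and in 0.0765% and 0.0546% of all promoters. The transport promoters averaged 61.6% G and C, against 59.75% for genes measured singly and 53.14% for all promoters, and the part of base composition in these shares was not tested. A match to such letters is a description of the sequence, not evidence of binding.

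The promoter of Sec23b, the gene with the greatest mean change of the 43 at 48 h, is shown in full because it holds no UPRE, and capitals mark its single CCACG, on the other strand.
Sec23b, chr3:152392433-152392732, plus strand: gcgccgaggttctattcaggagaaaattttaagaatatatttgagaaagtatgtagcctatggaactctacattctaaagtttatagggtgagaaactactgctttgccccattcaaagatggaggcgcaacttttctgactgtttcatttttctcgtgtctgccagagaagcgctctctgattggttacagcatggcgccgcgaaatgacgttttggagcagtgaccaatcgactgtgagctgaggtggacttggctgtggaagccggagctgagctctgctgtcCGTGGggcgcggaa

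Before the transport genes were examined, the arrays were checked with 10 genes of the unfolded protein response. At 24 h limma called 7 of the 10 higher (adjusted p under 0.05), and at 48 h all 10. The other 3 at 24 h were Herpud1, Ddit3 and Trib3 (limma adjusted p = 0.153, 0.0571 and 0.193). In these 3 every doxycycline array was above every control array, while the groups of Dnajc3, which was called, overlapped. At 5 days the replicate 1 pair ran the opposite way, with all 10 log2 ratios negative (-2.91 to -1.31, median -1.72), against medians of 1.67 and 1.22 in replicates 2 and 3. Replicate 3 was positive in all 10, and replicate 2 in all but Ddit3 (-0.81) and Trib3 (-2.77). The 2 libraries labelled doxycycline and control of 5-day replicate 1 therefore went against their labels. The library labelled doxycycline, 5 days, replicate 2 stood apart in another way, where the 3′ probe set of GAPDH was 2.91 times as bright as the 5′ one. That ratio lay between 1.05 and 1.19 on the other 17 arrays. The 24 h and 48 h arrays are therefore described first. Of 17 beta-cell genes 14 had a probe set, all 14 above the filter. Limma called 0 of these 14 at 24 h and 3 lower at 48 h, where 1.19% of all probe sets were lower. Of 7 acinar genes 0 passed the signal filter, and of 7 fibroblast genes 1 did. Among other islet hormones only glucagon (Gcg) passed, and it was lower at 48 h, with a log2 ratio of -2.71 (limma adjusted p = 0.00669). The summed signal of the other islet hormone genes was 333 to 373 on the doxycycline arrays and 1539 to 2148 on the control arrays at 48 h, and its part in the results was not tested.

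After 48 h of doxycycline, limma called 7 of the 43 transport genes higher and none lower. They were Sec23b of COPII, the coatomer subunit Arcn1, the cargo receptor genes Mcfd2 and Surf4, the SNARE genes Bet1 and Stx18, and the tether Uso1, with rises of 1.38-fold to 1.59-fold. Across all probe sets, limma on the 6 arrays of 48 h with the 3 pairs as blocks (Benjamini-Hochberg adjusted p under 0.05) placed 2.33% higher and 1.19% lower. The median log2 ratio of doxycycline to control over the 43 genes was 0.26, and in the 3 experiments 0.20, 0.23 and 0.33, beside -0.01 over the 15521 probe sets tested. The mean ratio was positive in 35 of the 43 genes (47.6% of all probe sets), and 32 were higher in all 3 pairs (22.8%). In 24 genes every doxycycline array was above every control array (11.3% of all probe sets), and in 1 gene, Arf5, every doxycycline array was below (10.8%). Leaving out any 1 of the 3 pairs ended all 7 calls, with 0 of 43 genes past the threshold by limma each time and 18 to 21 higher at an unadjusted p under 0.05. With all 3 pairs, 25 genes were higher at that p and 0 lower, where 12.2% of all probe sets were higher and 12.5% lower. By limma adjusted p, 0, 29 and 17 of all 15521 probe sets were higher without pairs 1, 2 and 3, against 361 with all.

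**Figure D2:**
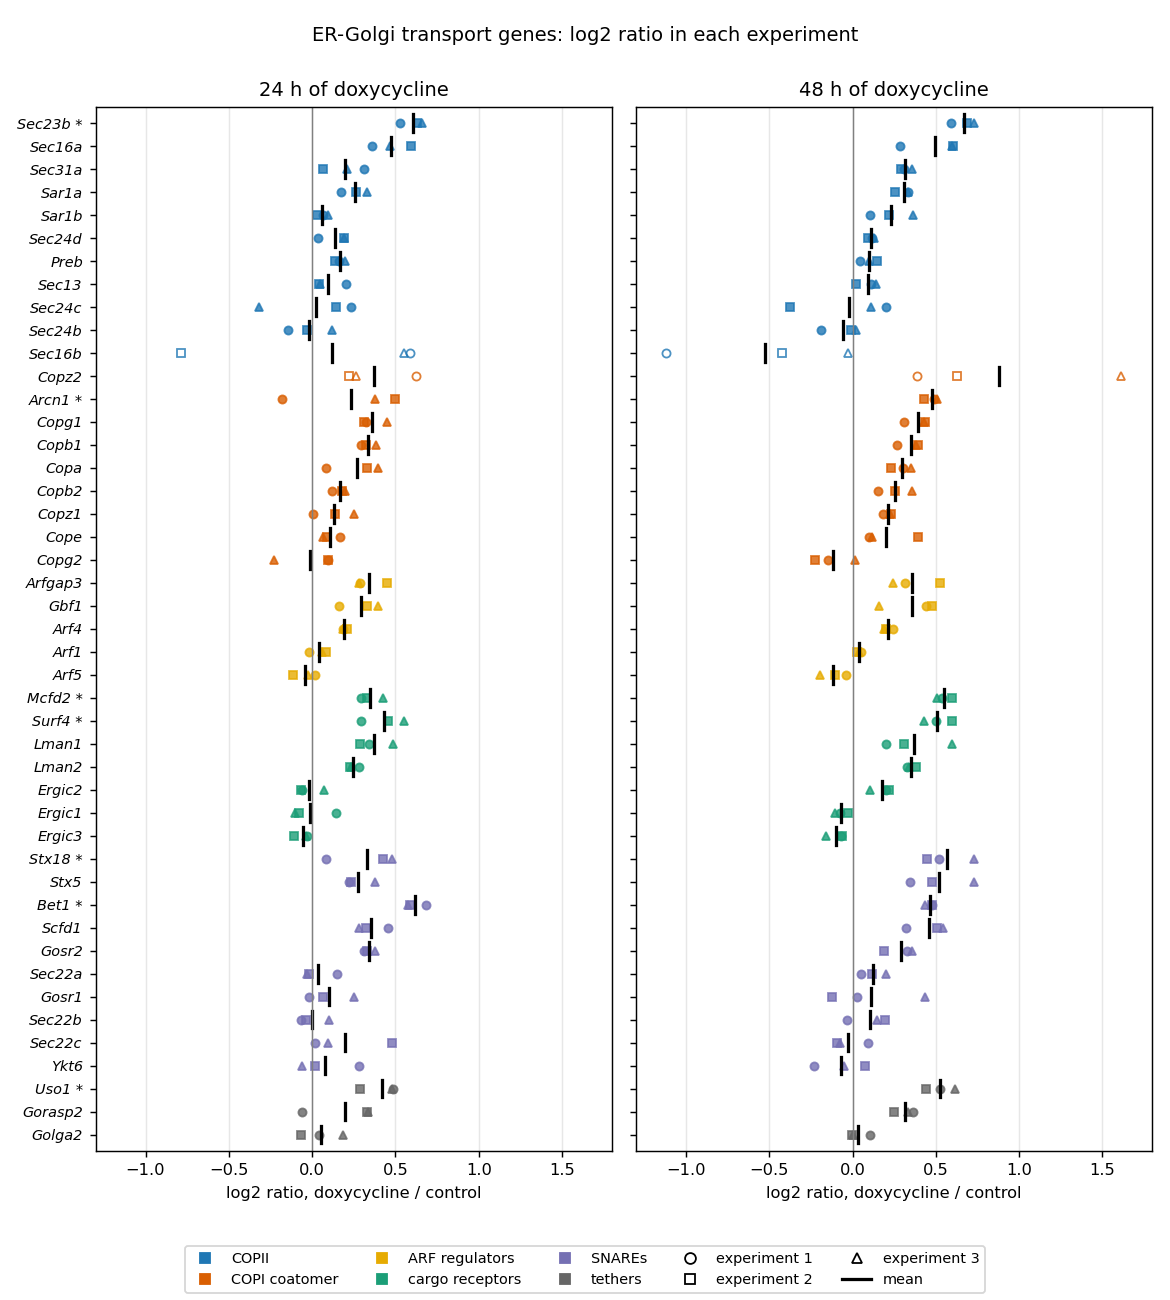
Log2 ratio of doxycycline to control for each of the 45 measured genes at 24 h (left) and 48 h (right), with 1 point for each experiment, a bar for the mean and colours for the class. Asterisks mark the 7 genes past the test at 48 h, open symbols mark Sec16b and Copz2, which were not tested, and most points lie right of 0.

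Among the COPII genes, Sec23b, which encodes the inner-coat protein that speeds GTP hydrolysis by Sar1, had signals of 5258, 4570 and 4815 on the doxycycline arrays of 48 h, against 3491, 2840 and 2901 on the control arrays. The groups did not overlap, and the rise was 1.59-fold (log2 0.67, SE 0.07, limma adjusted p = 0.0260). At 24 h the doxycycline signals were 3903, 4550 and 4656, against 2713, 2936 and 2950 in control cells. All 3 pairs were apart here too, with a log2 ratio of 0.60 that did not pass the threshold in the 24 h arrays alone (adjusted p = 0.0601).

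Sec16a, the scaffold of ER exit sites, had a log2 ratio of 0.47 at 24 h and 0.49 at 48 h (adjusted p = 0.113 and 0.0661). Its doxycycline arrays were above all control arrays at both times, and its ratio in experiment 1 at 48 h (0.28) was below those of experiments 2 and 3 (0.61 and 0.59). A second Sec16a probe set passed the test at 48 h (log2 0.48, adjusted p = 0.0390). Sec16b, a paralogue, had signals of 22.3 to 49.9 on the control arrays of 24 h and 48 h and was too dim to test.

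The other COPII genes had smaller ratios at 48 h, and none passed the test. The outer-cage genes differed in value, with a log2 ratio of 0.32 for Sec31a and 0.09 for Sec13. The Sar1 genes had ratios of 0.31 for Sar1a and 0.23 for Sar1b, both positive in all 3 pairs, and Preb, the membrane protein that loads Sar1 with GTP, had 0.10. The Sec24 genes, whose products choose the cargo, lay near 0, at 0.11 for Sec24d, -0.02 for Sec24c and -0.06 for Sec24b. Sec24c varied between experiments (0.20, -0.37 and 0.11). Second, dimmer probe sets gave 0.22 for Sec24b and 0.09 for Sec24c, neither past the test. Differences between paralogues were not tested.

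Arcn1, the delta subunit of coatomer, had signals of 3209, 3391 and 3387 on the doxycycline arrays of 48 h, against 2284, 2514 and 2380 on the control arrays. The groups did not overlap, and the rise was 1.39-fold (log2 0.48, SE 0.07, adjusted p = 0.0400). At 24 h its experiments disagreed, at log2 ratios of -0.18, 0.50 and 0.38. A second, dimmer Arcn1 probe set gave 0.46 at 24 h and 0.19 at 48 h and did not pass the test at either time (adjusted p = 0.0903 and 0.237).

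Of the other 7 coatomer genes tested, 6 had positive mean ratios at 48 h and none passed the test. Copg1 (gamma subunit) had a log2 ratio of 0.39, Copb1 (beta) 0.35, Copa (alpha) 0.30 and Copb2 (beta-prime) 0.26. The ratio was 0.21 for Copz1 (zeta) and 0.20 for Cope (epsilon). Copg2, the paralogue of Copg1, had -0.12, with values of -0.15, -0.23 and 0.02. Copz2, the paralogue of Copz1, had signals of 59.2 to 117.1 on the control arrays of 24 h and 48 h and was too dim to test. All coatomer genes with a positive mean except Copb1 had non-overlapping groups at 48 h.

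None of the 5 ARF regulators passed the test at 48 h, where limma gave an unadjusted p under 0.05 for 3, all higher, and the methods' t-test (2 samples, equal variance), adjusted over all probe sets, called 1, Arf4. Arfgap3, which helps ARF hydrolyse GTP on the Golgi, and Gbf1, which loads ARF with GTP, each had a log2 ratio of 0.36. The ratio was 0.21 for Arf4, with 0.25, 0.20 and 0.19 in the 3 experiments. Arf1 was nearly level, at 0.05, 0.03 and 0.04, with doxycycline arrays all above the control arrays by a small margin. Arf5 was below control in all 3 pairs, at -0.04, -0.11 and -0.20 (adjusted p = 0.402).

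Mcfd2, the soluble partner of Lman1 in carrying glycoproteins out of the ER, had signals of 3663, 3430 and 3458 on the doxycycline arrays of 48 h, against 2524, 2268 and 2437 on the control arrays. The groups were well apart and the rise was 1.46-fold (log2 0.55, SE 0.07, adjusted p = 0.0335). Surf4, a multispanning receptor that exports soluble proteins, had signals of 6113, 5388 and 5124 on the doxycycline arrays of 48 h and 4326, 3563 and 3806 on the control arrays. The groups did not overlap (1.42-fold, log2 0.51, SE 0.08, adjusted p = 0.0404), and a second Surf4 probe set gave 0.56 (adjusted p = 0.0350).

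The lectins Lman1 (ERGIC-53) and Lman2 (VIP36), which bind sugars on their cargo, had log2 ratios of 0.37 and 0.35 at 48 h without passing the test (adjusted p = 0.116 and 0.0686). Lman1 varied more, at 0.20, 0.31 and 0.60, than Lman2, at 0.33, 0.38 and 0.34. The Ergic genes, which encode cycling membrane proteins of the ER-Golgi intermediate compartment, lay lower. The ratio was 0.18 for Ergic2, while Ergic1 (-0.07) and Ergic3 (-0.10) were below control in all 3 pairs and did not pass the test.

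Among the SNAREs, Bet1 had signals of 4249, 3848 and 3728 on the doxycycline arrays of 48 h, against 3058, 2764 and 2759 on the control arrays. The groups did not overlap, and this SNARE of ER-derived vesicles was 1.38-fold higher (log2 0.46, SE 0.07, adjusted p = 0.0414). At 24 h its signals were 4365, 4398 and 4205 in doxycycline cells and 2716, 2923 and 2826 in control cells, the greatest mean change of the 43 genes at that time (log2 0.62, SE 0.07, adjusted p = 0.0592). A second Bet1 probe set had a log2 ratio of 0.68 at 24 h (adjusted p = 0.0584) and 0.52 at 48 h (adjusted p = 0.0383).

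Stx18, a SNARE of the ER membrane that receives returning COPI vesicles, had signals of 811, 772 and 805 on the doxycycline arrays of 48 h, against 565, 566 and 486 on the control arrays. The groups did not overlap (1.48-fold, log2 0.57, SE 0.09, adjusted p = 0.0434). Stx5, the Golgi partner of Bet1, had a log2 ratio of 0.52 that missed the threshold (adjusted p = 0.0661), while its second probe set passed at 0.55 (adjusted p = 0.0347). Scfd1 (Sly1), which binds Stx5, had 0.46 (adjusted p = 0.0588).

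The remaining genes of the SNARE class were nearer to 0 at 48 h. The log2 ratio was 0.29 for Gosr2 and 0.11 for Gosr1, both Golgi SNAREs. The Sec22 family had 0.12 for Sec22a, 0.10 for Sec22b and -0.03 for Sec22c. Ykt6, a lipid-anchored SNARE, had -0.07. None of these 6 passed the test, and only Gosr2 had non-overlapping groups. A second, dimmer Gosr2 probe set gave 0.07 (limma adjusted p = 0.601). Other tested probe sets gave -0.12 and -0.08 for Gosr1, 0.20 for Sec22b and -0.25 for Sec22c, none past the test.

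Uso1 (p115), which tethers vesicles to the Golgi, had signals of 4011, 3742 and 3912 on the doxycycline arrays of 48 h, against 2783, 2758 and 2552 on the control arrays. The groups were well apart, with a 1.44-fold rise (log2 0.53, SE 0.08, adjusted p = 0.0384). Its Golgi partner Golga2 (GM130) was level, at 0.10, 0.00 and 0.00, and the stacking protein gene Gorasp2 (GRASP55) had a log2 ratio of 0.31 (adjusted p = 0.0853).

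**Figure D3:**
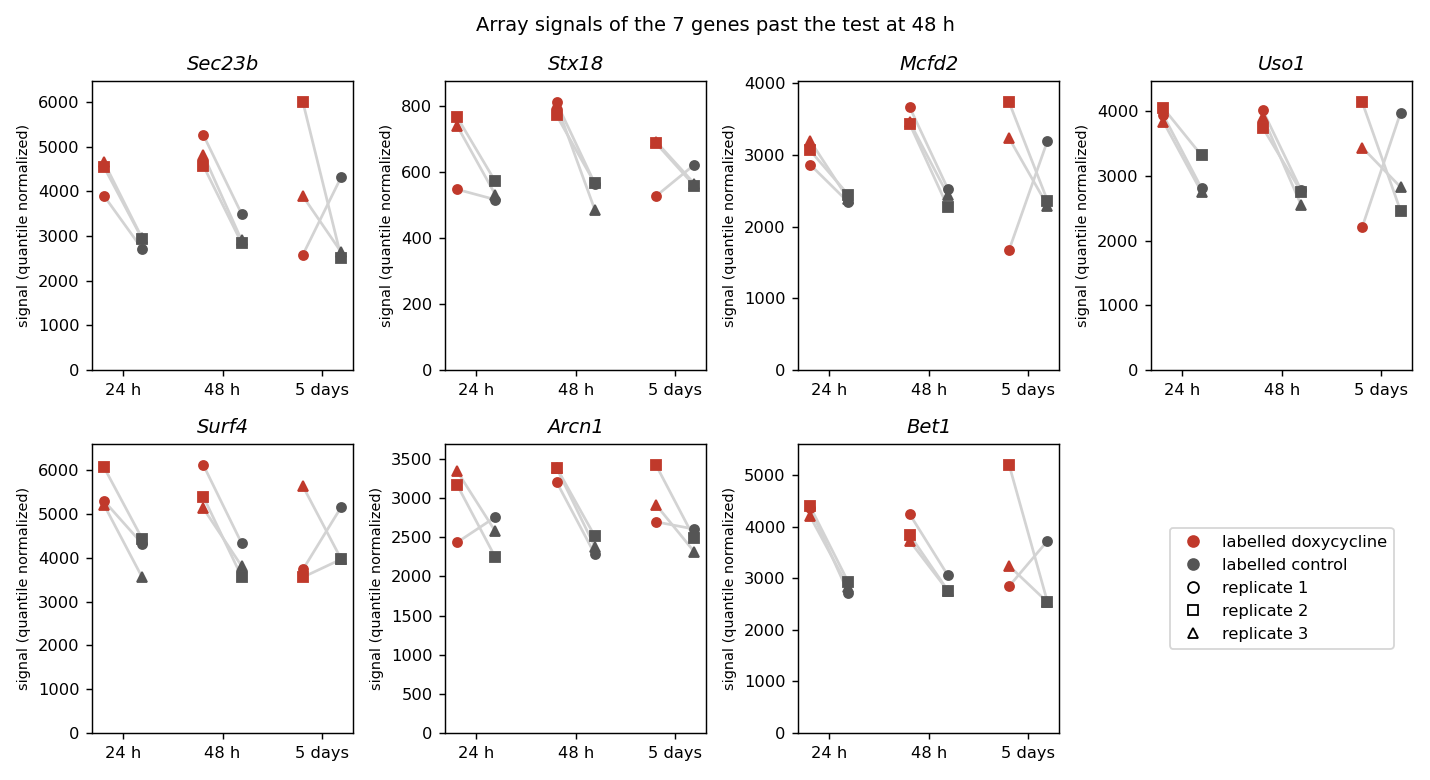
Quantile-normalized signal of the 7 genes past the test at 48 h, with doxycycline arrays (red) left of control arrays (grey) at each time, same-numbered arrays joined and symbols for the replicates. At 48 h all doxycycline arrays lie above all control arrays, and at 5 days the line of replicate 1 slopes the other way in 6 of the 7 genes.

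The coat classes were then set side by side. At 48 h the counts past the test were 1 of 10 for COPII, 1 of 8 for coatomer, 0 of 5 for ARF regulators, 2 of 7 for cargo receptors, 2 of 10 for SNAREs and 1 of 3 for tethers. All were higher, where 2.33% of all probe sets were higher. The class medians of the log2 ratio were 0.17 for COPII, 0.28 for coatomer, 0.21 for ARF regulators, 0.35 for cargo receptors, 0.21 for SNAREs and 0.31 for tethers. These are medians of the gene means. In the 3 experiments the class medians were 0.16, 0.18 and 0.24 for COPII, and 0.23, 0.32 and 0.36 for coatomer. For cargo receptors they were 0.20, 0.31 and 0.34, below coatomer in each experiment, though the median of the means was above it. Coatomer was also above COPII in each experiment at 48 h. The ranges of these classes overlapped, and that of SNAREs (0.19 to 0.40) overlapped with all of them. At 24 h the medians lay between 0.15 for COPII and 0.25 for cargo receptors. Coatomer was then below COPII in experiment 1 (0.11 against 0.19) and above it in experiments 2 and 3. At 5 days coatomer was below COPII in replicates 2 and 3 (0.12 against 0.28, and 0.18 against 0.21). In replicate 1 as labelled it was above (-0.21 against -0.31). No class was tested against another, since the classes are small and share their arrays.

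**Figure D4:**
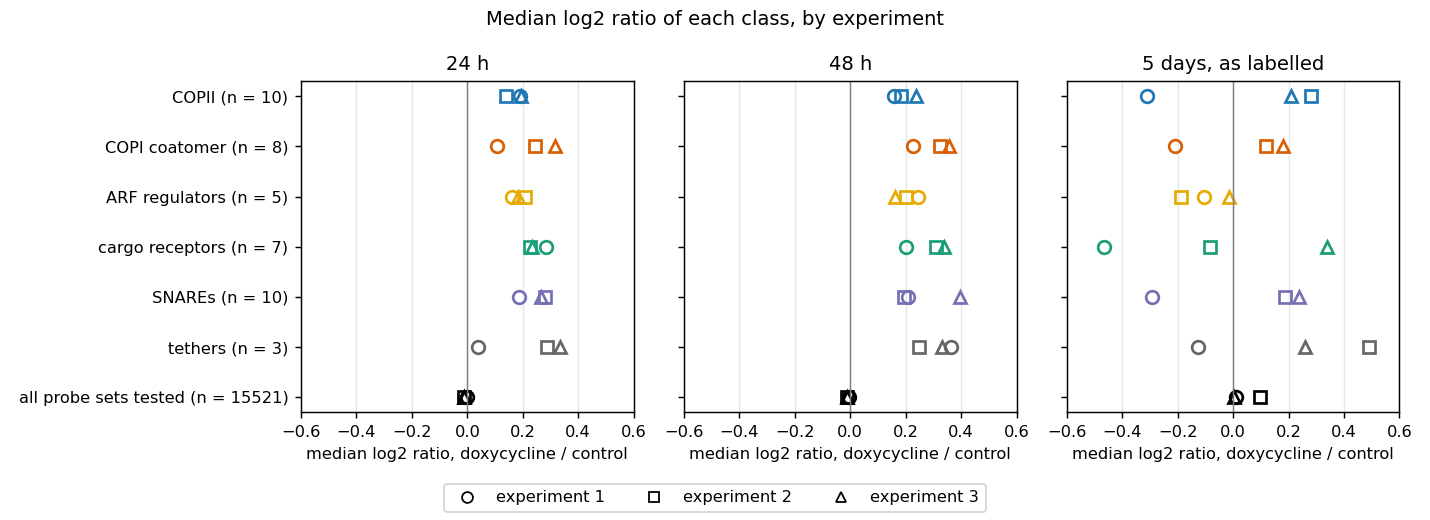
Median log2 ratio of doxycycline to control over the genes of each class, 1 symbol for each experiment, in a panel for each time, with all 15521 probe sets tested in the bottom row. All class medians are above 0 in each experiment at 24 h and 48 h, and at 5 days replicate 1 lies below 0 in every class.

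After 24 h of doxycycline, none of the 43 genes passed the limma test in either direction, while 0.193% of all probe sets were higher and 0.0129% lower. Before adjustment limma gave p under 0.05 for 19 genes, all of them higher, where 7.75% of all probe sets were higher and 6.94% lower. The methods' t-test gave it for 10, of which 0 remained after adjustment. The median log2 ratio was 0.20, and 0.16, 0.21 and 0.23 in the 3 experiments, beside -0.01 over all probe sets tested. The mean was positive in 36 genes (47.5% of all probe sets), and 28 were higher in all 3 pairs (17.8%). In 11 genes the doxycycline arrays all lay above the control arrays (5.03% of all probe sets), and in 0 all lay below (3.72%). Besides Sec23b, Bet1 and Sec16a, the greatest mean log2 ratios were those of Surf4 (0.43), Uso1 (0.42), Lman1 (0.37) and Copg1 (0.36).

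Fitting the 12 arrays of 24 h and 48 h together, with 6 pairs as blocks, gave a shared estimate of the spread. At 24 h 4 genes then passed, namely Bet1 (adjusted p = 0.00886), Sec23b, Surf4 and Uso1, with 1.09% of all probe sets higher and 0.29% lower. At 48 h 18 genes passed, all higher, with 5.64% of all probe sets higher and 4.73% lower. Arcn1 was not among them (adjusted p = 0.0566). Leaving out a 24 h pair left 2, 0 and 0 genes at 24 h for replicates 1, 2 and 3, and leaving out a 48 h pair left 9, 4 and 4 at 48 h. Of all 15521 probe sets, 81, 11 and 17 were higher in those fits at 24 h, and 380, 303 and 263 at 48 h.

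The difference between the effects at 48 h and 24 h was tested in the same fit. It passed the threshold for 0 of the 43 genes by limma, with 0 at an unadjusted p under 0.05 and a smallest adjusted p of 0.741, and for 0 of all 15521 probe sets. In the fit of all 18 arrays the count was also 0. The mean ratio was positive at both times in 33 genes, differed in sign in 5, and was greater at 48 h in 28. A difference between the times was therefore not detectable for these genes at the spread of these arrays.

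At 5 days the replicates differed in direction. As labelled, the log2 ratio was negative in 35 of the 43 genes in replicate 1, where 48.2% of all probe sets were negative. It was positive in 27 genes in replicate 2, near the 56.6% of all probe sets, and in 32 in replicate 3, against 50.8%. The medians were -0.26, 0.18 and 0.22 in replicates 1, 2 and 3, and 0.04 for the mean, beside 0.01, 0.10 and 0.00 in the replicates over all probe sets tested. In the 5-day arrays as labelled, limma called 0 of 43 genes higher or lower, 0 at an unadjusted p under 0.05 and 0 of all probe sets, and the methods' t-test called 0 after adjustment, with 1 lower before it.

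Sec23b showed the pattern, with signals of 2585, 5987 and 3889 on the arrays labelled doxycycline, against 4322, 2520 and 2640 on those labelled control. Mcfd2 had 1678, 3728 and 3229 on the arrays labelled doxycycline and 3194, 2362 and 2292 on those labelled control. In both, the replicate 1 pair was inverted relative to replicates 2 and 3.

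**Figure D5:**
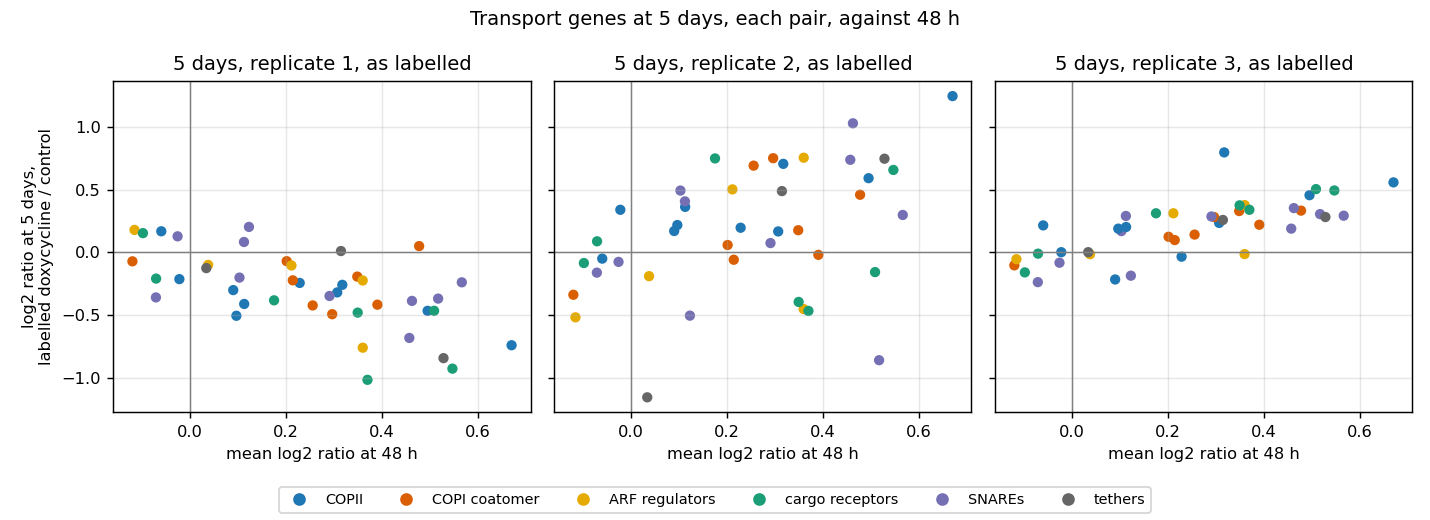
Log2 ratio at 5 days as labelled (y axis), in 1 panel for each replicate, against the mean log2 ratio at 48 h (x axis) for the 43 tested genes, coloured by class. The points of replicate 1 slope down, those of replicate 3 slope up, and replicate 2, whose doxycycline array has the high GAPDH 3′/5′ ratio, scatters most.

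When the labels of that pair were exchanged and all 18 arrays were fitted together, 8 transport genes were higher at 5 days and 0 lower, with 1.83% of all probe sets higher and 0.908% lower. The exchange was made because the check genes ran the opposite way, so it is a conditional result and not a replacement of the labels. The 8 were Sec23b (log2 0.85, adjusted p = 0.0131), Mcfd2 (0.69, adjusted p = 0.0107), Arfgap3 (0.63, adjusted p = 0.0206), Uso1 (0.63, adjusted p = 0.0299), Sec31a (0.59, adjusted p = 0.0326), Copa (0.51, adjusted p = 0.0456), Sec16a (0.51, adjusted p = 0.0300) and Ergic2 (0.48, adjusted p = 0.0433). Leaving out the replicate 2 pair as well gave 6, of which 3 were among the 8, namely Sec23b, Mcfd2 and Arfgap3. Sec16a, Sec31a, Copa, Ergic2 and Uso1 then missed the threshold (adjusted p of 0.0582 to 0.0865), while Lman2, Surf4 and Bet1 passed it. The share of all probe sets past it in this fit is not given here, so the count of 6 has no background beside it. In the 5-day arrays alone the exchange gave 0 by limma, while before adjustment 10 genes had p under 0.05, all of them higher, where 3.81% of all probe sets were higher and 2.27% lower.

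Genes with and without the UPRE were also compared in value, without a test. Of the genes tested that have a promoter in the table, the 9 with the element had a median log2 ratio of 0.28 at 24 h and 0.35 at 48 h, and the 29 without it had 0.13 at 24 h and 0.20 at 48 h. The ranges overlapped, at 0.04 to 0.52 with the element and -0.12 to 0.67 without it at 48 h. In the 48 h arrays alone 0 of the 9 and 6 of the 29 passed the limma test. Of those 6, 5 held a CCACG (83.3%), against 72.1% of all 43 transport promoters. In the fit of 12 arrays 5 of the 9 (Sec16a, Copb1, Gbf1, Stx5 and Scfd1) and 11 of the 29 passed at 48 h, so the order of the shares turned with the fit.

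Other genes of ER-Golgi transport were examined as a list of 54, among them TRAPP and COG tether subunits, of which 51 had a probe set and 48 passed the filter. At 24 h and 5 days 0 passed the limma test. At 48 h 3 of the 48 were higher (2.33% of all probe sets) and 0 lower (1.19%), with a median log2 ratio of 0.07. They were Creb3l1, an ER-anchored transcription factor (log2 1.14, SE 0.12, adjusted p = 0.0240), the Golgi tether Golgb1, known as giantin (0.67, SE 0.07, adjusted p = 0.0233), and the Golgi membrane protein gene Yipf5 (0.48, SE 0.07, adjusted p = 0.0402). Creb3l1 signals averaged 579 ± 106 in doxycycline cells and 262 ± 36.2 in control cells (SD, n = 3 each).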

How the data were processed

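Total RNA of clone #4S2 cells had been hybridized to 18 Affymetrix arrays, with 3 independent experiments behind each of the 6 groups. The authors deposited linear signal intensities, 1 for each probe set and array, scaled so that the 2% trimmed mean of each array was 500.14 to 500.17. Array medians were 91.2 to 138.5, and the number of arrays limits the precision. Groups and experiments were taken from the labels. Gene names came from the platform annotation, and promoters from RefSeq (GRCr8).

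Of 31099 probe sets, 57 controls were left out. After quantile normalization a floor was set at 5.99, the 10th percentile, before log2 transformation. Limma was run on the brighter 50% of probe sets by mean signal, 15521 in number, with version 3.58.1 in R 4.3.3, 1 time at a time, with Benjamini-Hochberg adjustment over all of them. The script was tested on simulated data. Array signals are given for genes past the threshold, and log2 ratios for the others. Alternatives were the deposited scaling, shared fits, no replicate block, no filter, no floor, the methods' t-test (2 samples, equal variance), an unmoderated test of the paired log2 ratios, other probe sets and leaving out pairs. That t-test is named in the paper for its data in general, not as the analysis of its arrays.

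Same-numbered arrays were taken as a pair, since the study compares within independent experiments. As a check, each array was centred on its group, and the correlation within a pair was 0.484 to 0.667 after 24 h, 0.256 to 0.578 after 48 h, but 0.109 to 0.149 after 5 days. The members and lists were chosen with earlier results of these data known.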

Additional observations from a re-analysis of the deposited data

Results flagged for a closer look

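In 3 genes the 5-day pairs as labelled all ran opposite to all pairs of an earlier time, and these differences were not tested. Gbf1, the ARF exchange factor, had a mean log2 ratio of -0.23 at 5 days, against 0.30 at 24 h and 0.36 at 48 h. Arf1 had -0.10 at 5 days and 0.04 at 48 h. Copz2, a coatomer subunit too dim to test, had -0.90 at 5 days, against 0.37 at 24 h and 0.88 at 48 h. These 5-day values include the replicate 1 pair, whose libraries go against their labels, and the replicate 2 pair, with the high GAPDH 3'/5' ratio.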

How the results depend on the processing

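The count of transport genes past the test depended on the fit more than the log2 ratios did. At 48 h, 7 genes were higher with the 3 pairs as blocks and 4 without the replicate block. The count was 18 with the 12 arrays of 24 h and 48 h in a single fit, 0 with all 18 arrays, 4 with those when the 5-day replicate 1 labels were exchanged, 0 without the filter on dim probe sets, 0 by an unmoderated test of the paired log2 ratios, 4 by the methods' t-test (Uso1, which limma also called, with Lman2, Copz1 and Arf4), and 0 to 0 with each pair left out. Among all probe sets tested at 48 h, limma placed 361 higher with the pairs as blocks and 208 without the replicate block. It placed 876 higher with the 12 arrays, 0 with all 18 and 152 with the labels exchanged. The count over all probe sets was also 0 without the filter and by the unmoderated test, and 121 by the methods' t-test. A 0 for transport genes where all probe sets also gave 0 does not set them apart. At 24 h the count of 0 transport genes became 4 in the fit of 12 arrays. At 5 days the count of 0 became 8 in the fit of 18 arrays with the replicate 1 labels exchanged, and 6 when the replicate 2 pair was also left out, a setting chosen after seeing the data, as were the methods' t-test and the exchanged labels at 48 h. In that last setting Lman2 (0.43) and Surf4 (0.49) were higher at 5 days, where the means as labelled were -0.17 and -0.04. The fits of fewer arrays have less to estimate the spread from, and the cause of the other shifts was not tested. Deposited scaling gave 8 at 48 h, and the other settings run there, no floor and the second probe set, gave 7 and 8. The replicate block changed no call at 24 h or 5 days. No transport gene was lower past the test in any setting run. Of the 1591 single-gene log2 ratios recomputed, 1409 kept their direction and side of the threshold, 56 lost the call and 33 gained it. The sign changed in 93, of which 91 were past the threshold in neither setting. Genes below the filter, such as Sec16b and Copz2, cannot be judged at these signals.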
